A study of Homo sapiens with 2 samples.

Results

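The proteasome genes described here are the protein-coding genes of GENCODE 44 whose symbol starts with PSMA, PSMB, PSMC, PSMD, PSME, PSMF or PSMG followed by a digit. The rule took 50 of 20046 protein-coding genes. It also took PSMC3IP, a meiotic recombination factor, and PSME3IP1, which binds PSME3, although neither is a subunit, an activator or an assembly factor, and the other 48 genes encode parts or helpers of the proteasome. IGF2BP3 is an RNA-binding protein that reads N6-methyladenosine (m6A) on RNA, and its sites were mapped by LACE-seq, in which RNA is fixed to protein with UV light, pulled down with an antibody to IGF2BP3, cut with a nuclease and read from linearly amplified cDNA ends. The samples were 2 replicates of OE-19, an established adenocarcinoma line of the esophagogastric junction, without treatment, in a single group. No input or control antibody library was analysed here, so the values compare the replicates with each other and the proteasome genes with all protein-coding genes.

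The proteasome degrades proteins that carry ubiquitin chains. Its core particle is a barrel of alpha rings, which form the gate, around beta rings, which hold the proteolytic sites. A regulatory particle with a ring of ATPases and a set of non-ATPase subunits binds ubiquitin, removes the chain and unfolds the substrate. Activators of the PSME family can take its place at the ends of the core, and the PSMG proteins are chaperones of core assembly. The genes are active in nearly all cells, and tumor cells depend on them enough that PSMB5 is a drug target.

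The deposited lists held 21142 peaks in replicate 1 and 20799 in replicate 2. A peak was given to a gene when it overlapped an exon of any of its transcripts by at least 1 bp, which placed 60 peaks of replicate 1 and 51 of replicate 2 on the proteasome genes. Each peak has a fold enrichment, which is a ratio of summit signal to local background taken from the authors' caller. Library totals are not known. The pileup of reads at each summit was instead solved from the caller's values, and it ranged from 7 to 123 reads for these peaks in replicate 1 and between 7 and 96 reads in replicate 2. Peaks carry no strand, and the lists hold no measure of RNA level, so weak binding and low expression of a gene cannot be told apart. Intervals are Wilson 95% intervals and cover counting error only. Of the epithelial markers KRT8, KRT18, KRT19, EPCAM, CDH1 and ERBB2, 6 of 6 had a peak in both replicates. Of PTPRC, PECAM1, COL1A1 and VIM, 0 of 4 did (interval 0 to 49%), and COL1A1 had a peak in replicate 2 (fold 5.84, 10 reads). The share with a peak in both was 31.6% over all protein-coding genes.

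The sequences below stand under overlapping peaks of the 10 genes with the highest pairs, and the pairs shown differ widely in strength. They are read from hg38 on the strand of the gene, 5′ to 3′, and the first set shows the TGGAC nearest to the summits, in capitals, because the study relates binding to this motif (with U for T in RNA). It contains the shorter GGAC, the core of the m6A motif. From the midpoint between the summits of a pair, the motif lay 55.5 nt away in PSMB1, 72 nt in PSMB2 and 86.5 nt in PSMB5. It lay 51.5 nt away in the 5′ UTR of PSMF1, 8.5 nt in its 3′ UTR and 26.5 nt in PSME4. The motif counts further on used 50 nt to each side of a summit. A match is a description of the sequence and not a mapped m6A site.
PSMB1, coding sequence, chr6:170535343-170535372, minus strand: gttccgctgtcctTGGACagagccatgcgg
PSMB2, coding sequence, chr1:35609325-35609354, minus strand: gcgctgtattacaTGGACtacctggcagcc
PSMB5, coding sequence, chr14:23026347-23026376, minus strand: ggcctctactacgTGGACagtgaagggaac
PSMF1, 5′ UTR, chr20:1118641-1118670, plus strand: tggtctcaggtgTGGACtcggcaagaacca
PSMF1, 3′ UTR, chr20:1166077-1166106, plus strand: ctctgtggttttTGGACcccatggggccca
PSME4, intron, chr2:53937660-53937689, minus strand: atgtgtgttagttTGGACatttgtagactg

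The next set shows the start codons, in capitals, that lay under peaks of both replicates in these genes, because peaks over start codons were frequent among the proteasome genes.
PSME3, chr17:42833620-42833649, plus strand: cccggcccggccATGgcctcgttgctgaag
PSMF1, chr20:1118762-1118791, plus strand: tcgcgggcgctcATGgcgggcctggaggta
PSMB5, chr14:23034864-23034893, minus strand: cccacactagacATGgcgcttgccagcgtg
PSMD12, chr17:67366502-67366531, minus strand: caggcggggaccATGgcggacggcggctcg
PSME4, chr2:53970767-53970796, minus strand: gtccctgggctcATGgagccggccgagcgg

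The last set shows stop codons, in capitals, under peaks of both replicates.
PSMA1, chr11:14505177-14505206, minus strand: ccaatggaacatTAAgtgataagccagtct
PSMB2, chr1:35603252-35603281, minus strand: aaacagggctccTAAcatcatgtcctccct
PSMB5, chr14:23026074-23026103, minus strand: ggctctacccccTGAaagagggtggatgca

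The first question was which proteasome transcripts carried IGF2BP3 peaks. Replicate 1 had peaks on 27 of the 50 genes and replicate 2 on 29, and 23 genes had peaks in both (46.0%, interval 33 to 59.6). Over all 20046 protein-coding genes the share with a peak was 37.3% in replicate 1, 39% in replicate 2 and 31.6% in both. An overlapping pair of peaks was found on 21 genes (42.0%, interval 29.4 to 55.8), against 28% of all protein-coding genes. The count was 13 genes when the summits had to lie within 50 bp of each other, and pairs on PSMG2, PSMD10, PSME3, PSMD11 and PSMG4 had summits 370 to 662 bp apart. A peak in either replicate was found on 33 genes (66%), against 44.7% of all genes, and among these the share with a peak in both was 69.7% for the proteasome genes (23 of 33 genes, interval 52.7 to 82.6) and 70.7% for all genes. Without PSMC3IP and PSME3IP1, 22 of 48 genes had peaks in both replicates and 20 had an overlapping pair.

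Peaks in both replicates were found in every class except the inducible and tissue-restricted beta subunits, a class of 4 genes. In the alpha ring 2 of 8 genes had peaks in both replicates, in the constitutive beta ring 4 of 7, among the ATPases 3 of 6 and among the non-ATPases 7 of 14. The activators with the inhibitor had 3 of 5 and the assembly chaperones of the PSMG family 3 of 4. In a single list or in both, every peak of PSMA1, PSMC1, PSMC2, PSMD7, PSMG2 and PSMG4 also lay on an exon of another gene. PSMB8, PSMB9 and PSMB10, the catalytic subunits of the interferon-inducible immunoproteasome, and PSMB11, the thymus form, had no peak in either list (0 of 4 genes, interval 0 to 49%). In each class the interval for peaks in both replicates included 31.6%, the share of all protein-coding genes. The groups are small, and no test between classes was made.

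**Figure D1:**
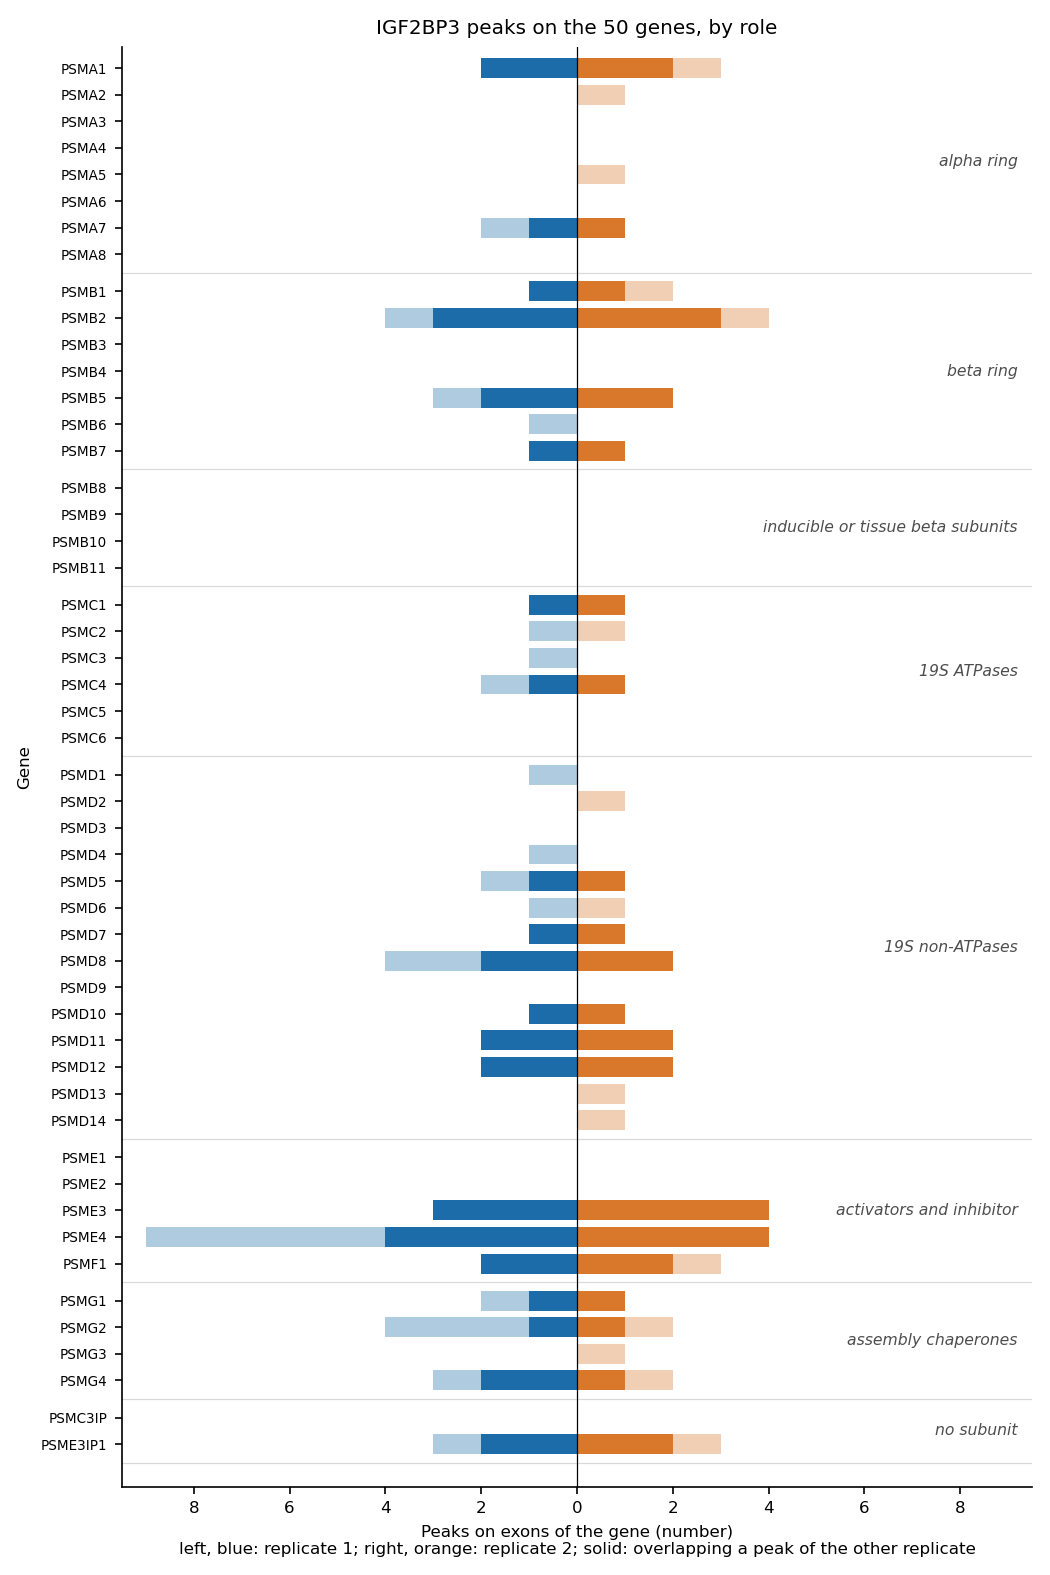
Number of peaks on exons of each of the 50 genes, by class. Bars to the left count replicate 1 and bars to the right replicate 2, and solid bars are peaks that overlap a peak of the other replicate. PSME4 has the most peaks, 9 and 4, and 17 genes have none.

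Strength was compared by rank, because fold enrichments are comparable only within a list. The median fold enrichment of the proteasome peaks was 7.14 in replicate 1 and 8.0 in replicate 2, against 6.84 and 7.13 for all peaks on exons of protein-coding genes. Expressed as percentiles of the whole list, the medians were 55.0 and 64.0. The range was wide, 2.97 to 17.4 in replicate 1 and 3.95 to 16 in replicate 2. The top quartile of fold held 18 of 60 peaks (30%) and 16 of 51 (31.4%), against 24.2% and 24.8% of all peaks. Median pileups were 20 and 17 reads, below the 24 and 23 reads of all peaks. The proteasome peaks thus stood near the middle of the lists in fold and had slightly fewer reads.

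Over the 37 overlapping pairs, Spearman's rho of fold enrichment between the replicates was 0.65. Over the 11934 pairs of all protein-coding genes it was 0.66. These values describe pairs that share libraries, genes and in places a peak, and no test was made. Single pairs could differ widely in rank, as in PSMD7 (percentiles 85.5 and 25.4) and PSMG2 (14.2 and 80.8). In 9 of the 37 pairs (24.3%) both peaks were at or above the 75th percentile of their list, against 18.4% of all pairs. The summits of a pair lay 58 bp apart at the median, against 41 bp over all pairs. Member peaks that overlapped the other list had median pileups of 26 and 19.5 reads, and those that did not had 16.5 and 14 reads. Over all protein-coding genes these medians were 29 and 29 reads against 18 and 17. In fold the order differed between replicates, with member medians of 7.83 and 7.99 for overlapping peaks and 6.45 and 8.07 for the others.

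**Figure D2:**
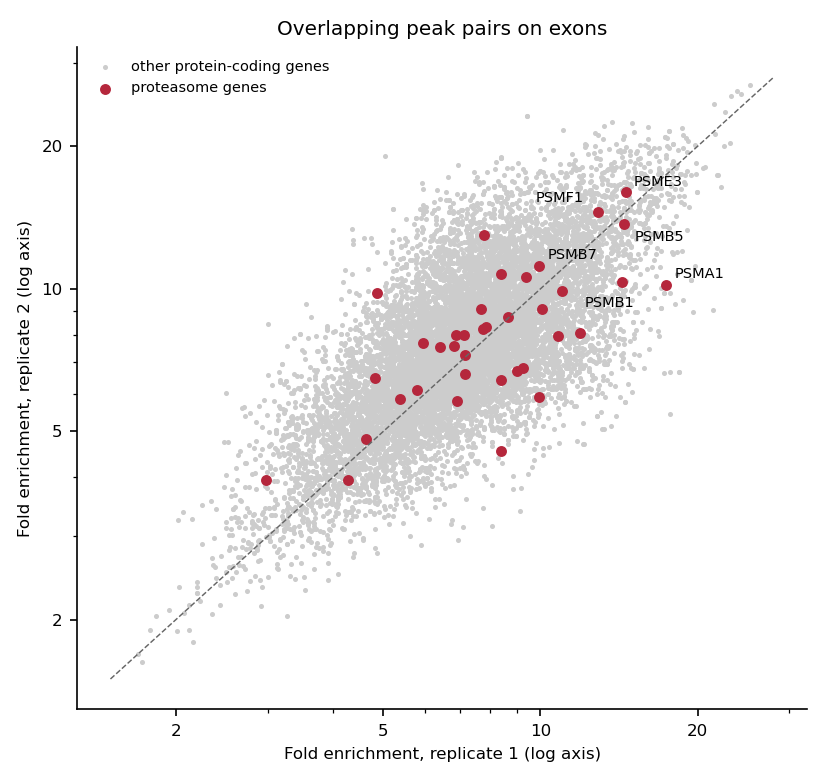
Fold enrichment of each overlapping pair in replicate 1 (horizontal, log axis) and replicate 2 (vertical, log axis). Red points are the 37 pairs on proteasome genes, grey points the pairs on other protein-coding genes, and the dashed line marks equal values. PSME3, PSMF1 and PSMB5 lie high in both lists, and PSMA1 and PSMB1 lie to the right of the line.

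A peak is said to lie over a codon when it covers the codon, while fold and reads are those of its summit, which can lie elsewhere. The genes are described next by role, beginning with the activators and the inhibitor, which held the strongest pairs. PSME3 encodes the nuclear activator PA28-gamma. A peak that reached from upstream of the gene's canonical transcript to just past the start codon had fold 14.6 in replicate 1 (chr17:42833193-42833662, 43 reads) and 16 in replicate 2 (chr17:42833187-42833646, 39 reads). Its summits were in the 5′ UTR, at nt 18 and 29 of the transcript. These folds are percentiles 97.7 and 98.0, the highest of any proteasome pair by the lower percentile. BECN1, an autophagy gene on the opposite strand, also has an exon under this peak, so the strand of the RNA is uncertain. The 3′ UTR of PSME3 carried another run of peaks in both lists. A peak of replicate 1 at fold 8.42 overlapped peaks at 4.55 and 6.43 in replicate 2, and a further pair stood at 4.63 and 4.82. Peaks covered 51.3% of the 3182 nt transcript in replicate 1 and 42.5% in replicate 2.

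PSMF1 encodes PI31, first described as an inhibitor of the core particle. The pair over its start codon had fold 12.9 (24 reads) and 14.5 (31 reads), and the lncRNA gene ENSG00000286787 has an exon on the opposite strand there. A pair in the 3′ UTR stood at 7.87 and 8.29 with 26 and 28 reads, and lay under no other gene. The transcript is the longest of the 50 genes, 8154 nt with a 3′ UTR of 7166 nt, and only 7.11% and 10.6% of it lay under peaks. Both pairs of PSMF1 held a TGGAC in the shared stretch.

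PSME4, the activator PA200, had the most peaks of all proteasome genes, 9 in replicate 1 and 4 in replicate 2. The 4 peaks of replicate 2 each overlapped a peak of replicate 1. The strongest pair, over the start codon, had fold 8.39 and 10.8, and an exon of ACYP2 lies on the opposite strand. Pairs at exon 34 of 47 (8.68 and 8.72), in the 3′ UTR (7.17 and 7.26) and at exon 5 (6.92 and 5.79) lay under no other gene. The remaining 5 peaks of replicate 1 lay on internal exons and had fold 6.23 to 8.63. PSME1 and PSME2, which form the interferon-inducible activator, had no peak in either list.

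In the constitutive beta ring, 7 overlapping pairs were found on 4 genes. PSMB5 encodes the chymotrypsin-like subunit, the site bound by bortezomib. Its last exon, with the stop codon, had fold 14.5 in replicate 1 (chr14:23025905-23026531, 52 reads) and 13.7 in replicate 2 (chr14:23026014-23026508, 30 reads), both above the 95th percentile. Another pair over the start codon stood at 7.69 and 9.07. Peaks covered 73.8% and 51.5% of this short transcript of 1044 nt, the largest shares of the 50 genes in either replicate. A further peak on exon 2, at 6.49, was found in replicate 1 alone.

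PSMB7, the trypsin-like subunit, had 1 peak in each list, at exon 4 of 8, with fold 9.94 (20 reads) and 11.2 (25 reads). PSMB1, a structural subunit of the ring, had a pair at its last exon with fold 14.3 (28 reads) and 10.3 (16 reads), and the summits lay 1 bp apart. Both summits were in the adjoining intron, as were those of PSMB7. PSMB2, also structural, had 4 peaks in each list and 3 pairs. The pair at exon 4 stood at 11.0 and 9.89, that over the stop codon at 10.8 and 7.96, and that at the first exon at 7.80 and 13. The order of these sites therefore differed between replicates. PSMB6, the caspase-like subunit, had a single weak peak in replicate 1 with fold 6.19 and 9 reads. PSMB3 and PSMB4 had none.

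**Figure D3:**
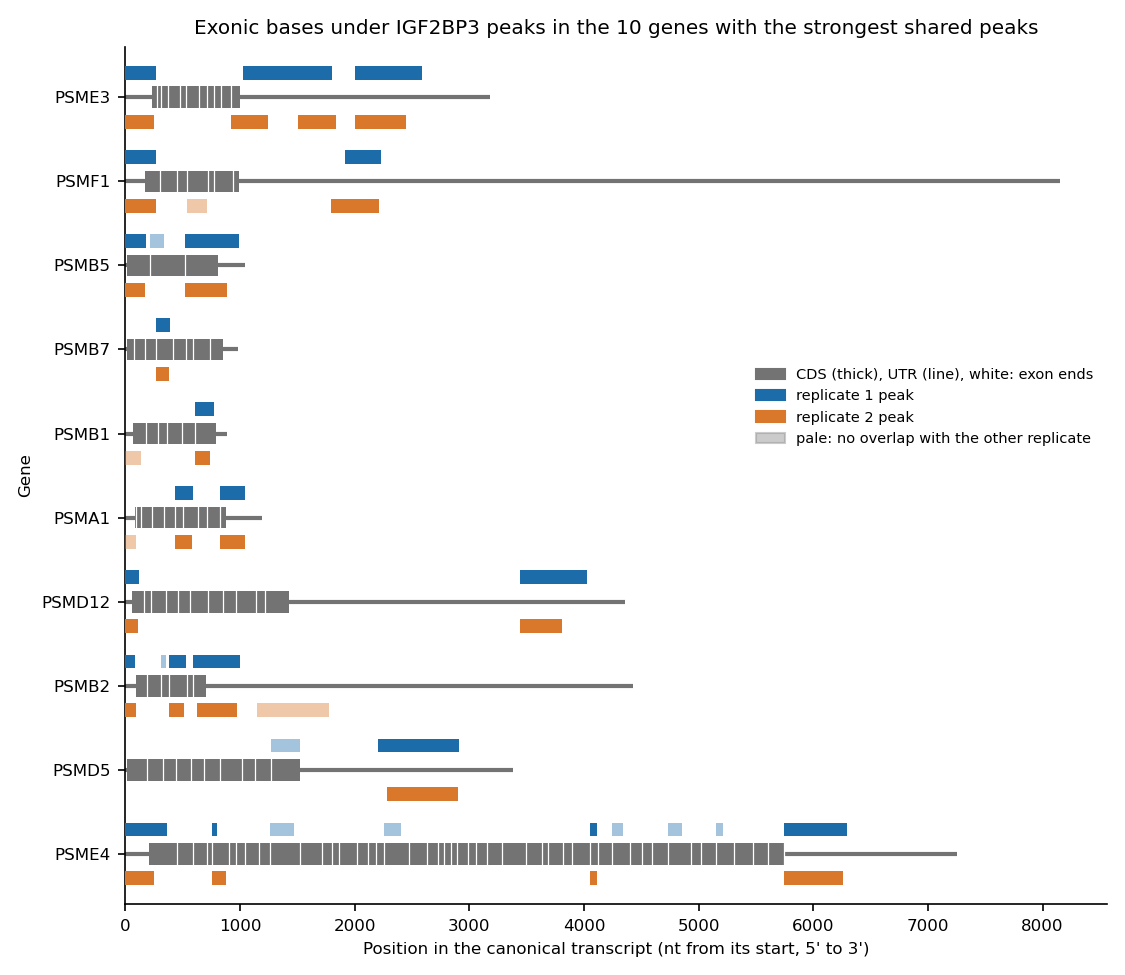
Exonic bases under peaks along the canonical transcript of the 10 genes with the strongest overlapping pairs. The horizontal axis is the position in nt from the transcript start, thick grey is coding sequence and the thin line UTR, with peaks of replicate 1 above in blue and of replicate 2 below in orange. Pale bars do not overlap a peak of the other replicate, and peaks at the start of the transcript are seen in both replicates for PSME3, PSMF1, PSMB5, PSMD12, PSMB2 and PSME4.

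In the alpha ring overlapping pairs were found on PSMA1 and PSMA7. The pair at the last exon of PSMA1, over the stop codon, had the largest fold of any proteasome peak in replicate 1, 17.4 (chr11:14505024-14505451, 47 reads), and fold 10.2 in replicate 2 (chr11:14505030-14505426, 20 reads). A weaker pair at exons 6 and 7 stood at 9.24 and 6.80. The same-strand gene ENSG00000256206 shares these exons, so the transcript of origin is uncertain. PSMA7 had a pair over the start codon with fold 6.42 and 7.53. PSMA2 and PSMA5 had 1 peak each, in replicate 2, with fold 8.07 and 9.81, and that of PSMA2 also lay on an exon of the same-strand gene ENSG00000256646. PSMA3, PSMA4, PSMA6 and the testis form PSMA8 had no exonic peak.

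The ATPases of the regulatory particle carried few and moderate peaks, 5 in replicate 1 and 3 in replicate 2. PSMC4 had a pair at exon 4 with fold 7.17 and 6.61. PSMC1 had a pair in the 3′ UTR with fold 5.81 and 6.10, where NRDE2 lies on the opposite strand. PSMC2 had a peak in each list, at 10.6 over the start codon in replicate 1 and at 8.71 in replicate 2 on an exon outside the canonical transcript, with DNAJC2 on the opposite strand, and these did not overlap. PSMC3 had a peak in replicate 1 alone, at 6.05. PSMC5 and PSMC6 had none.

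Among the 14 non-ATPases, 9 overlapping pairs fell on 6 genes. The 14 include PSMD5, PSMD9 and PSMD10, which are assembly chaperones of the regulatory particle. PSMD12, a lid subunit, had a pair over the start codon with fold 9.38 and 10.6 and 18 reads in each. Its 3′ UTR pair stood at 5.37 and 5.86, and the 31-mer at the summit of replicate 2 has several copies in hg38, so the origin of this peak is uncertain. PSMD5, an assembly chaperone of the ATPase ring, had a 3′ UTR pair with fold 10.1 and 9.07 and the highest pileups of the non-ATPases, 71 and 35 reads.

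PSMD8, a lid subunit, had 6 peaks in all, the most of the non-ATPases. Pairs lay over its start codon (9.03 and 6.71) and its stop codon (6.82 and 7.56), and peaks covered 41.8% and 33.7% of the transcript. PSMD11, another lid subunit, also had pairs at both ends, over the start codon (5.96 and 7.70), where the lncRNA gene ENSG00000279762 has an exon on the opposite strand, and in the 3′ UTR (6.89 and 7.97). PSMD10, the oncoprotein gankyrin, had a pair at its last exon with fold 11.9 and 8.07, and PSMD7, the partner of the deubiquitinase PSMD14, a pair at 9.93 and 5.91 that also lay on an exon of the opposite-strand lncRNA gene ENSG00000259972. Both pairs ranked higher in the list of replicate 1 than in that of replicate 2.

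The ubiquitin receptor PSMD4 and the deubiquitinase PSMD14 had no overlapping pair on exons. PSMD4 had 1 peak over the start codon in replicate 1 (fold 9.03, 12 reads), and PSMD14 had 1 at exon 7 in replicate 2 (fold 8.31, 10 reads). PSMD1, PSMD2 and PSMD13 also had a peak in a single list, with fold 6.55, 6.18 and 6.18 and 9 reads in each. PSMD6 had 1 peak per list, at 5.57 and 8.41, on different exons. PSMD3 and PSMD9 had none. PSMD3 lies 250 kb from ERBB2, which had 10 peaks in each list and is known to be amplified in OE-19.

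All 4 chaperones of the PSMG family had a peak in replicate 2, and PSMG1, PSMG2 and PSMG4 in both. Every peak of PSMG2 in replicate 2 and of PSMG4 in replicate 1 also lay on an exon of an opposite-strand gene. The pair of PSMG1 lay over its start codon with fold 4.83 and 6.49. PSMG2 had 6 peaks in all, and its pair stood at 4.87 and 9.80, where CEP76 lies on the opposite strand. Its other peak of replicate 2, with fold 10.1, lay on an exon of SPIRE1 and had its summit outside PSMG2. The pairs of PSMG4, with fold 2.97 and 4.28 in replicate 1 against a single peak at 3.95 in replicate 2, lay on exons outside its canonical transcript, where SLC22A23 runs on the opposite strand. Pileups there were 85 and 123 reads in replicate 1 and 96 in replicate 2. The 123 and 96 reads were the highest of the proteasome peaks in each list, while the folds of 2.97 and 3.95 were the lowest. PSMG3 had 1 peak, over the start codon in replicate 2, with fold 7.39. Of the genes that are not proteasome components, PSME3IP1 had pairs with fold 7.12 and 8.0 and with 7.75 and 8.21, and PSMC3IP had no peak.

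The 10 genes with a peak in a single replicate had 1 peak each. Their fold ranged from 6.05 to 9.81 and their pileups from 9 to 18 reads. Of these peaks, 4 lay over a start codon. At this depth a missing partner does not show that a site was absent from the other replicate.

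The next question was where on the transcripts the peaks lay. In the canonical transcript, 11 of 60 peaks of replicate 1 covered the start codon (18.3%, interval 10.6 to 29.9), against 9.61% of all peaks on protein-coding genes. In replicate 2 the share was 17 of 51 (33.3%, interval 22 to 47), against 14.5%. The share over all genes lay below the interval in both replicates, and no test was made. A peak over the start codon was found in both replicates in 9 genes, namely PSMA7, PSMB5, PSMD8, PSMD11, PSMD12, PSME3, PSME4, PSMF1 and PSMG1. Over all protein-coding genes the share with such peaks in both replicates was 6.57%. In PSMD11, PSME3, PSME4 and PSMF1 these peaks also lay on an exon of an opposite-strand gene in both replicates. Not all start-codon peaks of the 9 genes centred on the codon. The summits of PSMB5, PSMD11 and PSMD12 in both replicates lay upstream of the canonical transcript. Those of PSMA7, PSMF1 and PSMG1 did so in replicate 1. Summits outside the gene were 5% and 5.88% of proteasome peaks, against 2.7% and 4.96% of all peaks.

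The replicates differed in this respect. A peak over the start codon was found only in replicate 2 in 8 genes (PSMA1, PSMA5, PSMB1, PSMB2, PSMD2, PSMD6, PSMG3 and PSMG4) and only in replicate 1 in PSMC2 and PSMD4. Summits in the 5′ UTR were 10.0% of the proteasome peaks in replicate 1 and 27.5% in replicate 2, against 7.89% and 13.7% of all peaks. The rise from replicate 1 to replicate 2 was thus present over all genes as well.

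The first exon was reached by 12 of 60 peaks (20%, interval 11.8 to 31.8) and 19 of 51 (37.3%, interval 25.3 to 51), against 10.6% and 19.7%. Peaks on internal exons only were 21 of 60 (35%, interval 24.2 to 47.6) and 11 of 51 (21.6%, interval 12.5 to 34.6), against 45.9% and 41.8%, and the share of all peaks lay within the interval in replicate 1 and above it in replicate 2. The last exon held 36.7% and 35.3%, against 38.2% and 32.8%. The stop codon lay under 8 peaks of replicate 1 (13.3%) and 6 of replicate 2 (11.8%), against 14.9% and 13.3%, and in both replicates in 5 genes, PSMA1, PSMB2, PSMB5, PSMD8 and PSME3IP1, against 8.98% of all protein-coding genes. Summits in coding sequence were 26.7% and 13.7% of proteasome peaks, against 34.2% and 34.1%, and summits in 3′ UTRs 23.3% and 21.6%, against 26.3% and 20.8%. Although each peak reached an exon, the summit lay in an intron for 30% and 23.5%, against 24.9% and 22.4%. The end of the transcript was therefore covered about as often as in other genes.

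**Figure D4:**
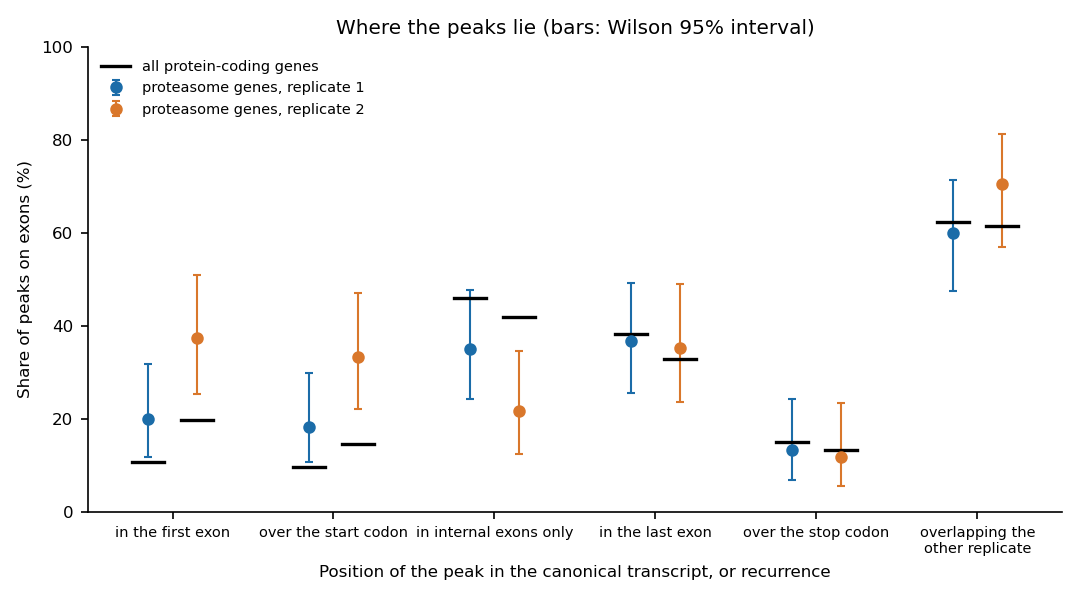
Share of peaks (percent) by position in the canonical transcript, and the share that overlap a peak of the other replicate. Points are the proteasome peaks of replicate 1 (blue, 60 peaks) and replicate 2 (orange, 51 peaks) with Wilson 95% intervals, and black lines are all peaks on protein-coding genes in the same replicate. The points for the start codon, at 18.3% and 33.3%, lie above the lines at 9.61% and 14.5%.

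Some proteasome peaks were shared with other genes. In replicate 1, 13 of 60 peaks (21.7%, interval 13.1 to 33.6) also lay on an exon of another gene. In replicate 2 the count was 14 of 51 (27.5%, interval 17.1 to 40.9). The shares of all peaks, 16% and 19%, lay within these intervals. When such peaks were left out, 17 of the 50 genes (34.0%) had peaks in both replicates, against 25.7% of all genes under the same rule. The 31-mer at the summit had several copies in hg38 for 0 of 60 peaks (interval 0 to 6.02) and 2 of 51 (3.92%), against 4.38% and 4.09%. Peaks overlapped the other list about as often as elsewhere, in 36 of 60 (60.0%, interval 47.4 to 71.4) and 36 of 51 (70.6%, interval 57 to 81.3), against 62.3% and 61.4%.

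Proteasome transcripts are short, with a median of 1529 nt against 2885 nt over all protein-coding genes. Over all protein-coding genes, longer transcripts tended to carry more peaks per gene. Proteasome genes with peaks in both replicates had a median 3′ UTR of 767 nt, those with a peak in a single replicate 309.5 nt and those with none 242 nt. The order was the same over all protein-coding genes, with 1487, 1144 and 746 nt. Across the 50 genes, the number of peaks had a Spearman's rho of 0.32 with transcript length and 0.36 with 3′ UTR length, against 0.26 and 0.24 across all 20046 genes. These are descriptions across genes. PSMA4, at 4378 nt, had no peak, and PSMB5, at 1044 nt, had 5, so length did not order single genes.

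The genes were then grouped by transcript length, with limits of 1200 and 2500 nt that were chosen after values had been seen. Up to 1200 nt, 7 of 17 proteasome genes had peaks in both replicates (41.2%, interval 21.6 to 64), against 17.3% of all genes of that length. Between the limits the share was 6 of 18 (33.3%, interval 16.3 to 56.3), against 24.9%. Above 2500 nt it was 10 of 15 (66.7%, interval 41.7 to 84.8), against 38.6%. The proteasome share was thus higher than the share of all genes in each length group, although in the middle group the latter lay within the interval.

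Start codons were also compared within length groups. Up to 1200 nt, 11.8% and 38.5% of proteasome peaks covered the start codon, against 23.2% and 26.8% of all peaks, so the replicates lay on opposite sides. Between the limits the shares were 23.1% and 36.4%, against 13.4% and 20.2%. Above 2500 nt they were 20% and 29.6%, against 8.01% and 12.5%. These groups held 11 to 30 proteasome peaks per replicate. Up to 1200 nt the intervals of 3.29 to 34.3 and 17.7 to 64.5 included the shares of all peaks. Between the limits the intervals of 8.18 to 50.3 and 15.2 to 64.6 did so too. Above 2500 nt the shares of all peaks lay below the intervals of 9.51 to 37.3 and 15.9 to 48.5. No test between length groups was made.

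**Figure D5:**
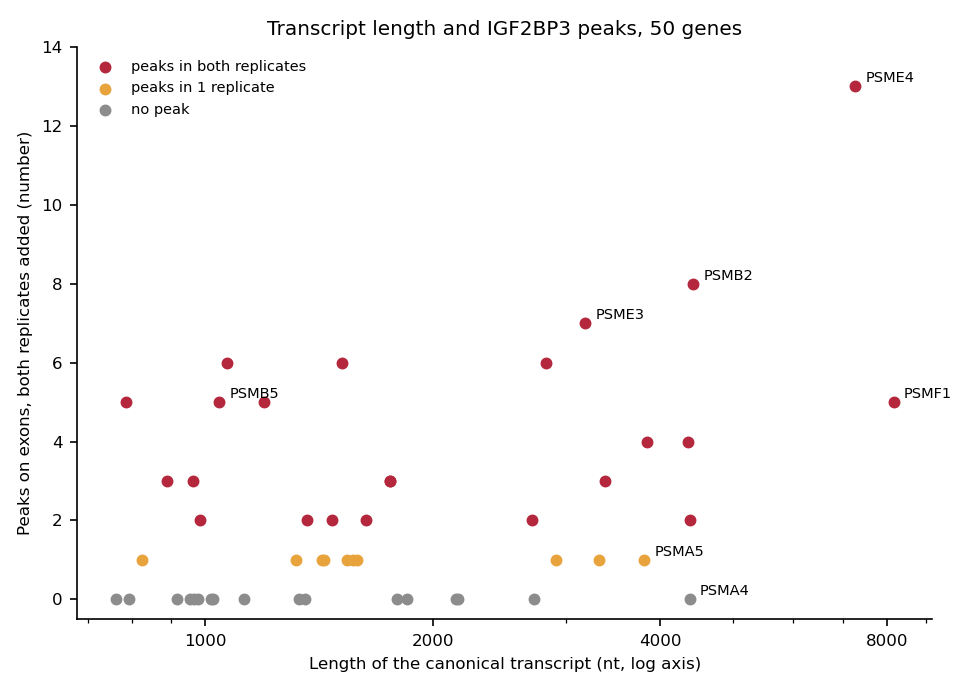
Number of peaks on exons, summed over both replicates, against the length of the canonical transcript in nt (log axis) for the 50 genes. Red points have peaks in both replicates, orange points in 1 and grey points in none. PSME4 has 13 peaks on 7250 nt, PSMB5 has 5 on 1044 nt and PSMA4 has 0 on 4378 nt.

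Motifs were counted on the gene strand in windows of 101 nt centred on the summit. TGGAC was found in 8 of 60 windows in replicate 1 (13.3%, interval 6.91 to 24.2) and 3 of 51 in replicate 2 (5.88%, interval 2.02 to 15.9), against 10.1% and 10% of all windows. The shorter GGAC, which every TGGAC contains, was found in 38.3% and 25.5%, against 29.5% and 32.5%. The replicates lay on opposite sides of the share of all peaks for both motifs. In the stretch shared by the peaks of a pair, TGGAC occurred in 9 of 37 pairs (24.3%), against 34.3% of all pairs.

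Of the CA-containing motifs known for IGF2BP proteins, CATA was found in 21.7% and 21.6% of windows, against 18.2% and 13.2%. CATC was found in 28.3% and 39.2%, against 33.2% and 29.9%, and CATT in 25.0% and 27.5%, against 32.3% and 25.1%. ACACA was found in 10.0% and 3.92%, against 10.1% and 8.06%. Only CATA lay above the share of all windows in both replicates, and its intervals of 13.1 to 33.6 and 12.5 to 34.6 included that share.

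Other genes of the pathway, whose symbols the rule does not take, were counted in the same way. This list of 20 genes holds further subunits, the ubiquitin shuttle factors and the transcription factors that control proteasome genes. Peaks in both replicates were found on 15 of 20 (75%, interval 53.1 to 88.8), against 31.6% of all protein-coding genes. An overlapping pair was found on 13, against 28% of all genes. Their transcripts are longer, with a median of 4178 nt, and of all genes above 2500 nt 38.6% had peaks in both replicates. RAD23B, a shuttle factor, had the highest pair, with a largest fold of 18.8 in replicate 1 and 16.5 in replicate 2.

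For scale, among 91 genes of cytosolic ribosomal proteins, which have shorter transcripts with a median of 848 nt, 62 had peaks in both replicates (68.1%, interval 58 to 76.8). Of the 8 chaperonin genes, 5 did (62.5%, interval 30.6 to 86.3). The share was 31.6% over all protein-coding genes and 17.3% over those of up to 1200 nt. The interval of the proteasome genes, 33 to 59.6, overlapped that of the ribosomal genes only narrowly and lay within that of the chaperonin genes. RNA levels were not compared between these groups, so their part in these shares was not tested.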

How the data were processed

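LACE-seq peak lists of 2 OE-19 samples were used as deposited. The submitters' processing notes name fastp, HISAT2, MACS2 and hg38, whereas the study's methods name Bowtie and Piranha for LACE-seq, and the files have the layout that MACS2 writes. Peaks were called per replicate. Each deposited line holds positions, a fold enrichment (a ratio over local background, by the authors' caller), a p-value and a q-value on the −log10 scale, and a score, which was not used. Library read totals are unknown, and the pileup was solved from the deposited fold and p-value under a Poisson distribution.

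Peaks were joined to exons of GENCODE 44 genes of hg38 and counted once per gene (18681 and 19014 peak and gene pairs over all protein-coding genes). Positions used the Ensembl canonical transcript, and summits were classed over all transcripts with CDS taking precedence over 3′ UTR, then 5′ UTR, then exons of non-coding transcripts, then introns. A pair overlapped by at least 1 bp. Percentiles are ranks of fold within a list. Values were given for the 10 genes with the highest pair by the lower percentile, the gene with most peaks per class, 10 genes of set roles, and genes with peaks in 0 or 1 list, and further genes were named to complete each class. Genes and lists were chosen with earlier results of these data known. The design has a single group, so shares are described with Wilson 95% intervals beside all protein-coding genes, and no test was made. Scripts were tested on simulated data. Python 3.11.15, pandas 2.3.3, scipy 1.17.1, pysam 0.24.0 and matplotlib 3.10.9 were used. Alternatives changed the peaks, exons, overlap, summit position, window and measure of strength.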

Additional observations from a re-analysis of the deposited data

How the results depend on the processing

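Of 106 alternative values for 11 results under 15 settings, 88 stayed within the spread between replicates or, for counts, within 1.5 times, and 18 moved. Reversal was not checked. Values from a single replicate always lie within this spread of the mean of 2, so they could only stay. The lowest −log10 q of a proteasome peak was 5.79 in replicate 1 and 5.44 in replicate 2. A lower limit of 5 therefore removed none of these peaks and changed no value. With the 5000 peaks of largest −log10 q in each list, 6 genes had peaks in both replicates (12%, against 9.84% of all genes) and 5 had an overlapping pair. Under the same limit, the mean share of peaks overlapping the other list went from 65.3% to 48.6%, the 3′ UTR share from 22.5% to 26.4%, the median fold from 7.57 to 11.3 and the median percentile from 59.5 to 89.9. The percentile was 49.2 when ranked by −log10 q. Counting summits at most 50 bp apart as shared left 13 genes with a pair and 30.8% of peaks, and reciprocal overlap of 50% left 56.2% of peaks. With the summit required in an exon, CDS went from 20.2% to 30.2%, 3′ UTR to 33.2% and intron from 26.8% to 0% by construction. The 3′ UTR share was 25.2% without peaks on other genes, 20.9% with single-copy summits and 24.3% by the middle of the peak. TGGAC went from 9.61% to 16.9% with 100 nt to each side and 24.1% over whole peaks. Using a single replicate gave ranges of 13.7 to 26.7% for CDS, 21.6 to 23.3% for 3′ UTR, 10.0 to 27.5% for 5′ UTR, 23.5 to 30% for intron, 18.3 to 33.3% over start codons, 5.88 to 13.3% for TGGAC, 60.0 to 70.6% for overlap, 7.14 to 8.0 for the median fold and 55.0 to 64.0 for the percentile. The number of overlapping pairs of the 10 strongest genes moved in 26 of 90 values, and the causes were not tested. Library depth is unknown and no control library was used here, which limits what a missing peak shows. No paired analysis was possible because the samples form a single group.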

Other observations

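Some peaks lay within proteasome genes but on none of their exons, and were not counted above. In PSMD14, which had no overlapping pair on exons, an intron held a pair with fold 12.4 in replicate 1 (chr2:161340906-161341276) and 13 in replicate 2 (chr2:161340906-161341493), on the pseudogene MXRA7P1. A neighbouring pair in the same gene stood at 9.83 and 5.81 and lay on no exon of another gene. PSMA8, the testis form, had an intronic pair with fold 7.55 and 7.25. In PSMB7 the intronic peaks had fold 3.78 in replicate 1 and 2.72 and 2.71 in replicate 2, and did not overlap. An intronic pair within PSMG2, at 9.09 and 9.16, lay on an exon of CEP76. PSMG4 held a run of such peaks near its exonic pairs, with fold 2.63 to 5.78 in replicate 1 and 2.47 to 7.70 in replicate 2. All of them lay on exons of SLC22A23, except a peak at 4.46 in replicate 2. The gene of origin of the PSMG4 peaks in this stretch is therefore uncertain.

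Of 7 lncRNA genes with proteasome gene symbols in their names, 1 had peaks, and it had them in both lists. This was PSMA3-AS1, with a peak in each list at different positions and fold 6.39 and 11.0. The peak of replicate 1 lay within PSMA3 but on none of its exons, and that of replicate 2 also lay on an exon of the protein-coding gene ARMH4. The peaks carry no strand, so their gene of origin is uncertain. Of 42 processed pseudogenes with such symbols, 2 had a peak in replicate 1 and 0 in replicate 2. No shares over all lncRNA genes or pseudogenes are given here, so these counts are descriptions only.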
